A study of Mus musculus with 40 samples.

Results

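The comparison set neural stem cell (NSC) cultures at 12 h of treatment against the same kind of cultures at 6 h. It used the 12 arrays whose titles begin with Prol_12h (6 arrays) or Prol_6h (6 arrays), out of 40 arrays in the whole time course, which ran to 144 h. The 6 arrays of each time held 3 of cells given 4-hydroxytamoxifen (4-OHT) and 3 of cells given vehicle, lettered A, B and C. Per the labels, all cells were primary NSCs from the telencephalon of E13.5 mouse embryos, on a 129/Svj;C57Bl/6 hybrid background, and all, vehicle cultures included, carried Id1L/L and Id2L/L (floxed), Id3-/- and Rosa-Cre-ER, a genotype labelled Id-cTKO-Rosa-Cre-ER. The floxed Id1 and Id2 alleles are deleted once 4-OHT releases the Cre recombinase that is fused to an oestrogen receptor and expressed ubiquitously from the ROSA26 locus, and Id3 is lacking from the start in every culture. The dishes were coated with laminin, the medium held 20 ng/ml of FGF-2 and 20 ng/ml of EGF, and 4-OHT was used at 250 nM, dissolved in ethanol. The labels do not say that the replicates were separate cultures or animals, so p-values measure only the spread among these arrays, some of which may be technical. When cells were plated or last fed is not given in the sources used here. Of interest were the genes that differed between the times irrespective of 4-OHT, so the agent was a term of the model and not the contrast.

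NSCs of the embryonic telencephalon are kept dividing in culture by FGF-2 and EGF, whose receptors signal through the ERK kinases. Immediate early genes, a class that includes Fos family members and the matricellular genes Ccn1 and Ccn2, are transcribed quickly and usually for a short while after cells receive growth factors, attach or are stretched. D cyclins carry the growth factor signal to the cell cycle, cyclin-dependent kinase (CDK) inhibitors restrain it, and replication and mitosis genes are transcribed in turn as cells pass through S phase and G2.

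Total RNA was measured on Illumina MouseWG-6 BeadChips, and all levels below are log2 of the background-corrected, quantile-normalized bead intensity. A probe was tested if its detection p-value was below 0.01 on 3 or more of the 12 arrays, which left 18420 probes, and 9740 genes had a tested probe with a single symbol. The median raw intensity ran from 38.8 to 51.1 on the arrays of 12 h and from 25.8 to 38.4 on those of 6 h, so the 2 times did not overlap in the median. In the 95th percentile of intensity they did, with 696 to 1065 at 12 h and up to 824 at 6 h. The vehicle array of 6 h with the letter C was dim, with 12947 detected probes, against 16220 to 17607 on the other arrays of 6 h and 17100 to 18021 on those of 12 h. The part of the median intensity in the results was not tested. On the first principal component, with 36.8% of the variance, vehicle arrays A and C of 12 h and B and C of 6 h lay apart from the other 8 arrays. Array numbers in the labels run in 1 block of 6 for each time, and which arrays shared a BeadChip is not stated in the labels, so time and array position cannot be told apart. No pair of arrays held identical values.

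The label of neural stem cells was checked against marker genes. Of 22 NSC markers on the array, 17 were detected on all 6 arrays of 12 h and 14 on all 6 arrays of 6 h. Vim, an intermediate filament gene of progenitors, the stem cell transcription factor genes Sox2 and Sox9, and Fabp7, which encodes a fatty acid binding protein of radial glia, were detected on all 12 arrays. Of 15 microglia and macrophage markers none was detected on all arrays of either time, and 11 were detected on no array. For endothelial cells and pericytes, 12 of 16 markers were detected on no array. Markers of astrocytes (7 of 15 detected on all arrays of 12 h and 7 on all of 6 h), oligodendrocyte lineage (12 and 10 of 22) and neurons (12 and 8 of 33) were present in part. In bulk RNA, fewer cells of a type and less RNA per cell cannot be told apart, here and in every result below.

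With the agents together, 1203 of 18420 probes (6.53%) differed between 12 h and 6 h at an adjusted p under 0.05 (limma, Benjamini-Hochberg over all tested probes), 699 of them higher (58.1%) and 504 lower at 12 h. Median scaling in place of quantile normalization moved the median of all genes from 0.01 to 0.43. Under it 211 probes were called, 185 higher (87.7%) and 26 lower. With 1 probe a gene, 669 of 9740 genes (6.87%) were called. Of these, 388 (3.98%) rose and 281 (2.89%) fell. The changes were mostly small: the median over the called genes was 0.53 for those that rose and -0.54 for those that fell, and only 11 and 23 genes passed a 2-fold change. In 249 genes (2.56%) all 6 arrays of 12 h lay above all 6 of 6 h, and in 203 genes (2.08%) all lay below. Calls and separation coincided for 184 genes that rose and 169 that fell.

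How firmly a gene was called depended on single arrays. In each of the 12 fits that left out 1 array, 135 of the 388 genes that rose and 139 of the 281 that fell were called again in the same direction. The count of 1203 probes moved by over 1.5 times without 4-OHT 6 h A (652), B (737) or C (557), without 4-OHT 12 h B (595) or C (731), and without vehicle 12 h C (731). It rose without the 4 vehicle arrays that lay apart, but these were picked from the same data and only 1 vehicle array remained at each time. Fitted on their own, the 6 arrays of 4-OHT gave 854 probes and the 6 of vehicle gave 1. For each group of genes below, the number of calls made again in all 12 of those fits is given as the calls that held without any single array. Of the called genes, 259 had a further tested probe. Of their 395 further probes, 297 (75.2%) had the same sign and 70 (17.7%) were called the same way. For 3 genes, Dnm1l, Hnrnpa2b1 and Serpinh1, a further probe was called the opposite way, and their direction is not settled by these arrays.

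The change between the times was also computed within each agent, as contrasts in a fit of 4 group means. The changes in the agents share no array, but their p-values rest on a spread estimated from all 12 arrays. Between 12 h and 6 h, 30 probes (0.163%) were called in 4-OHT cultures and 53 (0.288%) in vehicle cultures, and 20 were called in both. Each of the 30 and of the 53 had the same sign in the other agent. Over the 9740 genes the change in 4-OHT cultures and the change in vehicle cultures correlated with r = 0.673, a value across genes, which are not independent replicates, and 72.5% had the same sign, as the plot of one change against the other shows. A difference between the agents in the change over time was called for 0 probes (0%) by limma, with 155 probes (0.841%) at an unadjusted p under 0.05. These counts within 1 agent moved with single arrays too. The count in 4-OHT cultures was between 2 and 5 without any one of 4-OHT 6 h A, B and C or 4-OHT 12 h A, B and C, and reached 126 without vehicle 6 h C and 72 without vehicle 12 h B. The count in vehicle cultures was lowest without vehicle 12 h C (3) and highest without vehicle 12 h A (149). It was 17, 25 and 25 without 4-OHT 6 h A, B and C, 22 without 4-OHT 12 h B, 16 and 19 without vehicle 6 h B and C, and 33 without vehicle 12 h B.

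**Figure D1:**
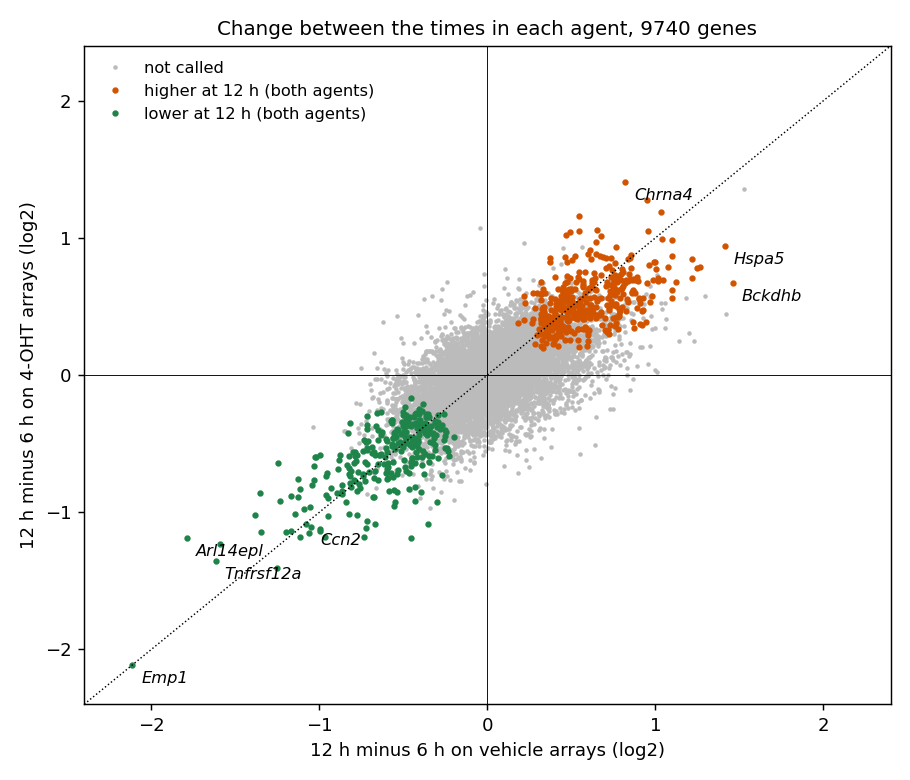
Log2 difference, 12 h minus 6 h, in vehicle cultures (x axis) and in 4-OHT cultures (y axis) for the 9740 tested genes; orange points rose and green points fell with both agents together, grey points were not called, and the dotted line marks equal change. Emp1 sits alone at -2.11 on both axes, and the changes correlate with r = 0.673 across genes.

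The largest change belonged to Emp1, an epithelial membrane protein of the PMP22 family. Its lowest, median and highest levels were 5.98, 6.13 and 6.48 on the 6 arrays of 12 h, against 8.07, 8.30 and 8.56 on those of 6 h. No array of 12 h came near the range of 6 h. Emp1 fell by 2.11 ± 0.11 (SE) on the log2 scale, a 4.32-fold lower level at 12 h (adjusted p = 7.13e-08, limma), and the change was -2.11 in 4-OHT cultures and -2.11 in vehicle cultures. It was the 1 named gene whose call held under every alternative tried. Its promoter is shown because it carries matches to the AP-1 motif TGANTCA, the binding sequence of Fos and Jun family dimers, starting 145 and 25 bases before the gene start. Capitals mark the matches in the 250 bases upstream of the start, chr6:135362681-135362930 on the plus strand of GRCm38.p6, from RefSeq. Searched on both strands, the motif occurs in 6.75% of all 32851 mouse promoter windows of that length.
Emp1: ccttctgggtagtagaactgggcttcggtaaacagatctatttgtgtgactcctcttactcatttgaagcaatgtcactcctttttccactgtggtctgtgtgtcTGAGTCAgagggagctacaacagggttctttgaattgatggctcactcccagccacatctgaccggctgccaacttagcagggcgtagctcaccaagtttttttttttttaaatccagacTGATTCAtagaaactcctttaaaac
The match is a description of the sequence and does not show a bound site.

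The other genes with the largest falls among called genes whose times did not overlap are given with what each encodes. Tnfrsf12a, the Fn14 receptor for the cytokine TWEAK, had levels of 6.50, 6.76 and 7.10 (lowest, median, highest) at 12 h and 8.11, 8.30 and 8.42 at 6 h. It fell by 1.49 ± 0.10 (2.80-fold, adjusted p = 1.99e-06, limma), with no overlap between the times. Adap1, a GTPase-activating protein for ARF6, had 10.18, 10.36 and 10.64 at 12 h and 11.27, 11.66 and 12.82 at 6 h. The times did not overlap, and it fell by 1.41 ± 0.18 (adjusted p = 0.000549, limma). Numa1, which organises spindle poles, fell by 1.24 ± 0.17 (adjusted p = 0.0011), with 5.42 to 6.35 at 12 h and 6.75 to 7.51 at 6 h. Arl14epl fell by 1.49 ± 0.31 over all arrays (adjusted p = 0.0119) and by 1.16 without the dim array, on which it reached 10.91.

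Both Crhbp, the secreted binding protein of corticotropin-releasing hormone, and Npas4, a transcription factor known in neurons for its induction by activity, were not well above background on any array of 12 h and were detected on all 6 arrays of 6 h. Crhbp had 5.32, 5.84 and 6.23 at 6 h, and Npas4 5.25, 5.53 and 6.14. Where every array of a time was below detection, the fold is a bound: each such array was set to the lowest level of a detected probe on it, or to the probe's own level if higher. Crhbp was then at least 2.02-fold lower at 12 h (adjusted p = 0.00026, limma) and Npas4 at least 1.73-fold lower (adjusted p = 0.000429). Of the 114 named genes called, 93 were detected on all 12 arrays. The others include Ccn1, Hspa5, Mxi1, Prim1, Nr1d2, Pdgfra and Ahrr, whose levels are in part not well above background.

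A further 5 genes fell by about the same amount, and in each the 6 arrays of 12 h lay below all 6 of 6 h. Ppp3r1, the regulatory subunit of the calcium-activated phosphatase calcineurin, had 7.79 to 8.24 at 12 h and 8.96 to 9.65 at 6 h, a difference of -1.17 (adjusted p = 0.000194). Rgs16, which speeds the shut-off of G protein signals, had 7.19 to 8.12 at 12 h and 8.48 to 8.87 at 6 h, a difference of -1.10 (adjusted p = 0.000544). The cysteine protease gene Blmh (-1.15), the receptor tyrosine phosphatase gene Ptprf (-1.15) and Prune2 (-1.11) followed, with adjusted p of 0.000429, 0.00165 and 0.000549 by limma. The 14 genes with the largest falls among called genes whose times did not overlap include Cdkn2c and Ccn2. Each of the 14 held its call without any single array.

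**Figure D2:**
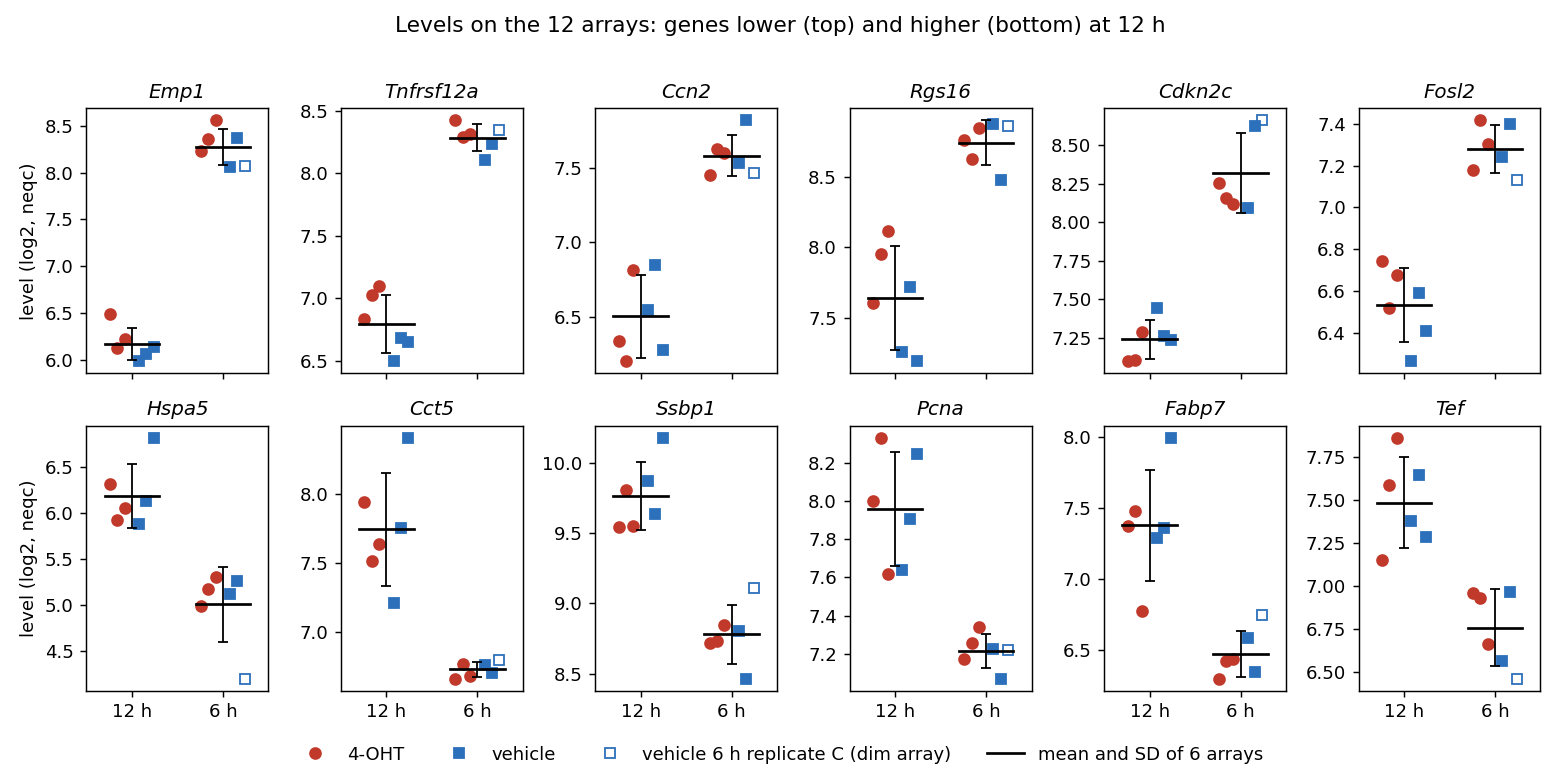
Levels (log2 normalized intensity) of 12 genes on each array, 12 h to the left and 6 h to the right in every panel; circles are 4-OHT arrays, squares vehicle arrays, the open square the dim array, and the line and bar are the mean and SD of 6 arrays. In the panels of genes that fell (Emp1, Tnfrsf12a, Ccn2, Rgs16, Cdkn2c and Fosl2) every point of 12 h lies below every point of 6 h, and in the panels of Hspa5, Cct5, Ssbp1, Pcna, Fabp7 and Tef every point of 12 h lies above.

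Of 24 measured immediate early genes, 4 fell, 1 rose and 19 were not called, where 2.89% of all genes fell and 3.98% rose, with a median difference of -0.14 against 0.01 over all genes. All 5 calls held without any single array. Ccn2 and Ccn1 encode secreted matricellular proteins that are textbook targets of YAP with TEAD factors and of SRF. Ccn2 had 6.20, 6.44 and 6.85 (lowest, median, highest) at 12 h, against 7.45, 7.57 and 7.82 at 6 h. It fell by 1.08 ± 0.14 (2.11-fold, adjusted p = 0.000544, limma) without overlap, and a second Ccn2 probe fell by 0.92. Ccn1 had 4.62, 5.20 and 5.45 at 12 h and 5.64, 6.24 and 6.43 at 6 h, and fell by 1.03 ± 0.16 (adjusted p = 0.00257). Its 2 other probes, at -0.21 and -0.77, were not called. The Ccn1 promoter is shown for its match to the TEAD motif GGAATG, here on the reverse strand, so that it reads as its reverse complement in capitals, 103 bases before the start. The window is chr3:145649986-145650235 on the minus strand of GRCm38.p6, from RefSeq, and 12.6% of all promoter windows hold this short motif on either strand.
Ccn1: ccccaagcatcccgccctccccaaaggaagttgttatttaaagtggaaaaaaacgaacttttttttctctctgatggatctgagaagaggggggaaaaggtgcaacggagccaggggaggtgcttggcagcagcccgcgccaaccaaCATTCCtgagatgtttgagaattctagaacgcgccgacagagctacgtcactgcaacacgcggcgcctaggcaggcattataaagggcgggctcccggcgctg
A match to 6 letters is frequent by its length alone and is no evidence of binding.

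Fosl2, a Fos family subunit of AP-1, had 6.27, 6.56 and 6.74 at 12 h and 7.13, 7.27 and 7.42 at 6 h, and fell by 0.74 ± 0.11 (adjusted p = 0.00165, limma). Dusp1, a phosphatase that inactivates MAP kinases, had 9.19 to 9.70 at 12 h and 9.82 to 10.13 at 6 h and fell by 0.56 ± 0.10 (adjusted p = 0.00523). In both genes the times did not overlap. Klf10, a zinc finger repressor induced by TGF-beta, went the other way: it was detected on all 6 arrays of 12 h (5.10 to 5.65) and on none of 6 h, at least 1.21-fold higher (adjusted p = 0.00694). The best-known members of the class did not pass the test, as given here for Fos (0.12, adjusted p = 0.532), Egr1 (0.21, adjusted p = 0.116) and Myc (-0.14, adjusted p = 0.62), which were chosen after their values were seen.

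Among 25 integrin and focal adhesion genes, 2 fell and 3 rose (6.87% of all genes were called either way), and 4 of these 5 calls held without any single array. Cav1, the coat protein of caveolae, had 6.43, 7.10 and 7.30 at 12 h against 7.55, 8.03 and 8.23 at 6 h, with no overlap, and fell by 0.92 ± 0.15 (adjusted p = 0.00349, limma). Pxn, the focal adhesion scaffold paxillin, had 5.16, 5.57 and 6.15 at 12 h and 6.09, 6.72 and 6.91 at 6 h. The ranges overlapped narrowly, and it fell by 1.07 ± 0.18 (adjusted p = 0.00316). Kank1, which links adhesions to microtubules, rose by 0.66 and the integrin subunit gene Itga9 rose by 0.76 (adjusted p = 0.00907 and 0.0127). Of 22 SRF and actin cytoskeleton genes 3 fell, namely Ccn1, Ccn2 and Srf itself (-0.40), and the call of Srf did not hold without single arrays (adjusted p up to 0.0967). Among 27 extracellular matrix genes, 2 were called higher and 3 lower, and each of these calls was lost without at least 1 array (adjusted p up to 0.11). For Tnc and Bcan, called lower, a further probe was called lower too, at -0.38 and -0.60 (adjusted p = 0.0131 and 0.0167, limma). The remaining Tnc probes, from -0.57 to -0.26, were not called.

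In the growth factor pathway the called genes moved in both directions. Of 15 FGF and ERK feedback genes, 2 were called higher and 2 lower, beside 6.87% called either way over all genes, with a median difference of -0.01. Etv1, an ETS transcription factor downstream of FGF, rose by 0.56 ± 0.10 (10.42, 10.74 and 11.09 at 12 h, 10.02, 10.22 and 10.31 at 6 h, adjusted p = 0.00637, limma), while its 2 other probes, at 0.29 and 0.22, were not called. Hbegf, a membrane-anchored EGF receptor ligand, had 7.64, 7.96 and 8.54 at 12 h, and 8.55, 8.67 and 9.13 at 6 h, and fell by 0.74 ± 0.15 (adjusted p = 0.00907). Neither gene overlapped between the times. The other calls of this list, Dusp14 (-0.52) and Il17rd (0.54), did not hold without single arrays (adjusted p up to 0.112). Egfr itself, a receptor for EGF, had a difference of -0.01 (adjusted p = 0.929).

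Among the genes called over all 12 arrays the largest rise belonged to Hspa5, the endoplasmic reticulum chaperone BiP. ND4L, chosen after its value was seen, had a larger difference of 1.44 that missed the threshold (adjusted p = 0.0507, limma). The lowest, median and highest levels of Hspa5 were 5.88, 6.10 and 6.82 at 12 h, against 4.21, 5.15 and 5.31 at 6 h. The lowest value came from the dim array, and Hspa5 was not detected on all 12 arrays. Hspa5 rose by 1.18 ± 0.20 (SE; 2.26-fold, adjusted p = 0.00457, limma) over all arrays and by 1.01 without the dim array, and the times did not overlap. Without that array Morf4l1b (1.22), Chrna4 (1.09), Ssbp1 (1.04) and Cct5 (1.02) stood above it, so its rank rests on that array. The chaperone list did not move with it. Of 18 measured ER chaperone and unfolded protein response genes 2 were called, beside 6.87% of all genes, and the median was -0.01. The second, Pdia6 (0.35), did not hold without single arrays (adjusted p up to 0.108), and its other probe stood at -0.14. Among 31 ATF4 stress and serine synthesis genes limma called 0 on all 12 arrays, with a median of -0.16. Without the dim array it called 1 higher and 4 lower, where 391 and 374 of all 9740 genes were called. Among 22 p53 target genes it called 0 on all 12 arrays. The Hspa5 promoter is shown for its match to the ER stress response element (CCAAT, 9 bases of any kind, then CCACG), in capitals, 65 bases before the start (chr2:34771840-34772089, plus strand, GRCm38.p6, RefSeq). The element, searched on both strands, is found in 0.113% of all promoter windows.
Hspa5: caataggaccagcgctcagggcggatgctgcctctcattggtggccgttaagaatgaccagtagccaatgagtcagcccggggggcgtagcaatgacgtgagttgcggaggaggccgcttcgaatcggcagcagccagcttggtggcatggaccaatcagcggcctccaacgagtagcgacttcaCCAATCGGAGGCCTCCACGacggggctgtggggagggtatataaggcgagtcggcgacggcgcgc
Counted by gene, with a match in any of a gene's windows, the element was in 2 of 316 genes that rose, Hspa5 included. It was in 0 of 229 genes that fell and in 12 of 7979 of all tested genes.

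The other genes with the largest rises among called genes whose times did not overlap are given with what each encodes. Sox8 was called with a rise of 1.11 (adjusted p = 0.0308, limma), but its times overlapped. Of the genes given, Ndufb4, Bckdhb, Clcn4, Cyfip2, Cct2, Top2b and Adam10 were not detected on all 12 arrays. Their levels are in part not well above background. Ssbp1, which coats single-stranded mitochondrial DNA, had 9.54, 9.72 and 10.18 at 12 h, against 8.46, 8.77 and 9.11 at 6 h. It rose by 0.98 ± 0.12 (1.98-fold, adjusted p = 0.000447, limma) with no overlap, and its other probe, at 0.37, was not called. Ndufb4, a subunit of respiratory complex I, had 6.61, 7.28 and 7.68 at 12 h and 5.74, 6.15 and 6.50 at 6 h, and rose by 1.04 ± 0.18 (adjusted p = 0.00397). Atp5md, a small subunit of ATP synthase, rose by 1.003 (adjusted p = 0.0013). Bckdhb, a subunit of the branched-chain ketoacid dehydrogenase, stood 1.07 higher (adjusted p = 0.0308), but the call was lost without 4-OHT 6 h C, 4-OHT 12 h B or C, or vehicle 12 h B or C (adjusted p up to 0.0746), and the difference was 0.76 without the dim array.

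Cct5, a subunit of the chaperonin that folds actin and tubulin, had 7.21, 7.70 and 8.41 at 12 h and 6.66, 6.73 and 6.79 at 6 h. It rose by 1.02 ± 0.16 (2.02-fold, adjusted p = 0.00238, limma), and Cct2 rose by 1.01 ± 0.22 (adjusted p = 0.0134), both without overlap. Of all 8 measured subunits of this complex, a set chosen after values were seen, 3 were called higher, beside 3.98% of all genes. These were Cct2, Cct5 and Cct7, with Cct7 close to the threshold (adjusted p = 0.0498, limma). The median of the 8 was 0.16. The differences of the other 5 were -0.10 for Cct3, 0.09 for Cct4, 0.12 for Cct6a, 0.20 for Cct8 and 0.02 for Tcp1. Mean levels at 12 h were 6.93, 7.74 and 6.79 for Cct2, Cct5 and Cct7, and from 11.58 (Cct8) to 12.40 (Cct6a) for these 5. Cct2 and Cct7 were detected on 5 of 6 arrays of 6 h.

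Of the remaining genes with large rises, Chrna4, a nicotinic acetylcholine receptor subunit, had 7.20, 7.47 and 8.08 at 12 h and 6.12, 6.51 and 6.63 at 6 h, and rose by 1.11 ± 0.14 (adjusted p = 0.000447, limma), with a second probe called at 0.96. Within the agents its change was 1.41 in 4-OHT cultures and 0.82 in vehicle cultures, and the difference between the agents did not pass the test (adjusted p = 0.9998). Nono, a nuclear RNA-binding protein of paraspeckles, rose by 0.93 (adjusted p = 0.00106), and Top2b, a DNA topoisomerase, by 0.96 (adjusted p = 0.00523). Clcn4, a chloride-proton exchanger (1.03), Cyfip2, part of the WAVE actin regulator (1.03), and the sheddase gene Adam10 (0.91) rose with adjusted p of 0.015, 0.0144 and 0.0131. Morf4l1b rose by 1.11, but it is a near copy of Morf4l1, and the probe may not tell them apart. In all 7 the times did not overlap, and the calls held without any single array.

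In the cell cycle, 2 CDK inhibitor genes fell, 4 mitosis genes fell and 1 was called higher, 5 S phase genes rose, and no D cyclin gene was called. Of these calls 1, 3 and 2 held without any single array, all 3 of the mitosis genes being falls. Over all genes 3.98% rose and 2.89% fell. Cdkn2c, the CDK4 and CDK6 inhibitor p18, had 7.10, 7.25 and 7.44 at 12 h and 8.09, 8.21 and 8.66 at 6 h. It fell by 1.08 ± 0.11 (2.11-fold, adjusted p = 0.000194, limma) with no overlap. A second Cdkn2c probe was called at -1.11 and another, at -0.33, was not. Its relative Cdkn2d fell by 0.51 (adjusted p = 0.0188), a call lost without 4-OHT 6 h A (adjusted p = 0.0571). The other 9 of 11 CDK inhibitor and pocket protein genes were not called on their probe of highest mean level. Cdkn1a (p21) stood at -0.05 on that probe and at 0.02 on a second, while another was called at -0.70 (adjusted p = 0.0243), so its direction is not settled. Of 13 D cyclin, D cyclin kinase and Myc genes, only Mxi1, a Myc antagonist, was called, with a rise of 0.86 (adjusted p = 0.00292). Ccnd1 stood at -0.10 (adjusted p = 0.416) and Cdk4 at -0.24 (adjusted p = 0.261).

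Of 50 S phase and DNA replication genes, 5 rose and 0 fell, where 3.98% of all genes rose. In 35 of the 50 the difference was positive, against 5097 of the 9740 genes tested, and the median was 0.10. Pcna, the sliding clamp of DNA polymerase, had 7.62, 7.95 and 8.33 at 12 h and 7.07, 7.22 and 7.34 at 6 h. It rose by 0.74 ± 0.13 (1.67-fold, adjusted p = 0.00521, limma) without overlap. Uhrf1, which keeps DNA methylation at replication forks, rose by 0.48 (adjusted p = 0.00907), and these 2 calls held without any single array. Prim1, a primase subunit (0.76), the helicase gene Mcm6 (0.49) and the licensing gene Cdc6 (0.36) did not hold (adjusted p up to 0.096). The 3 other Mcm6 probes, at -0.12, -0.04 and 0.54, were not called.

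Of 49 G2 and mitosis genes, 4 fell and 1 was called higher, where 2.89% of all genes fell. In 34 of the 49 the difference was negative, against 4643 of the 9740 genes tested, and the median was -0.13. Birc5, the survivin subunit of the chromosomal passenger complex, had 9.56, 9.83 and 9.94 at 12 h and 10.08, 10.45 and 10.59 at 6 h. It fell by 0.60 ± 0.10 (adjusted p = 0.00458, limma) with no overlap, and of its 2 other probes 1 was called at -0.44 and 1, at -0.40, was not. Kif2c, a kinesin that depolymerises microtubules (-0.45), and the checkpoint kinase gene Bub1b (-0.38) fell too, with adjusted p of 0.0103 and 0.0142, and these 3 calls held without any single array. Cdc20 (-0.33) and the centromere gene Cenpk (0.40) did not hold (adjusted p up to 0.115). Another Cdc20 probe was called at -0.55 (adjusted p = 0.0129, limma) without overlap, and those at -0.27 and -0.425 were not called. Under median scaling the median of this list was 0.42, below the 0.43 of all genes but above the 0.37 of all tested probes. Its place against the rest then depends on the reference. The median of the S phase list under median scaling was 0.65.

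Cholesterol synthesis and uptake genes included 5 of 18 that fell and 1 that rose, where 2.89% of all genes fell and 3.98% rose. In 14 of 18 the difference was negative, and the median was -0.27. Srebf2, the transcription factor that drives the pathway, had 7.67, 7.79 and 8.23 at 12 h and 8.42, 8.69 and 8.80 at 6 h. It fell by 0.78 ± 0.11 (adjusted p = 0.000938, limma) without overlap, and its other probe stood at -0.26. Mvd, the decarboxylase of the mevalonate pathway, had 8.86, 8.99 and 9.67 at 12 h against 9.74, 9.85 and 10.45 at 6 h and fell by 0.87 ± 0.13 (adjusted p = 0.00167). Idi1, the isomerase of the next step, rose by 0.79 (adjusted p = 0.0103). These 3 calls held without any single array, and the other calls, with Lss (-0.45) and Cyp51 (-0.38) among them, did not (adjusted p up to 0.0971). Under median scaling the list's median was 0.29, below the 0.43 of all genes and the 0.37 of all tested probes. In fatty acid synthesis 1 of 12 genes was called, the desaturase gene Fads2, which fell by 0.76 (adjusted p = 0.00588), with its other probe at -0.55 and not called. Of 23 glycolysis and hypoxia genes 2 were called lower and 1 higher, and only Pfkp, a phosphofructokinase, which fell by 0.85 (adjusted p = 0.00637), held without any single array. Its other probe, at -0.11, was not called.

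The ribosomal protein, ribosome biogenesis and respiratory chain lists had shares of called genes near or below the 6.87% of all genes. Of 52 cytosolic ribosomal protein genes 4 were called higher and 0 lower, with a median of 0.00. Rps3, one of the small subunit, had 13.08, 13.29 and 13.52 at 12 h and 12.63, 12.71 and 13.04 at 6 h, and it rose by 0.52 ± 0.08 (adjusted p = 0.00257, limma), with its other probe at 0.22 and not called. It was the 1 of the 4 that held without any single array. Of 47 ribosome biogenesis genes, 1 was called higher and 2 lower, with none held. A further probe of Ubtf, called lower, was called at -0.66 (adjusted p = 0.00884, limma) without overlap. The other probe of Ddx21, called higher, stood at -0.54 and was not called. Of 66 respiratory chain genes, 4 were called higher and 1 lower, and Ndufb4 and Atp5a1, subunit alpha of ATP synthase (0.69, adjusted p = 0.00343), held without any single array. The other Atp5a1 probe, at -0.12, was not called. Of 16 NRF2 and glutathione genes, 2 were called higher and 1 lower. The thioredoxin reductase gene Txnrd1 rose by 0.65 and the sulfiredoxin gene Srxn1 fell by 0.63 (adjusted p = 0.0122 and 0.00289), while the thioredoxin gene Txn1 (0.51, adjusted p = 0.0195) lost its call without 4-OHT 6 h B (adjusted p = 0.0506). Heat shock genes had a higher median, 0.29 over 15 genes, but their 3 calls (2 higher, 1 lower) did not hold (adjusted p up to 0.108). Without the dim array 4 were called higher and 1 lower, where 391 and 374 of all 9740 genes were called. Of 23 polyamine and nucleotide synthesis genes 3 were called higher, and Prps1, which makes phosphoribosyl pyrophosphate (0.40, adjusted p = 0.0106), held.

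**Figure D3:**
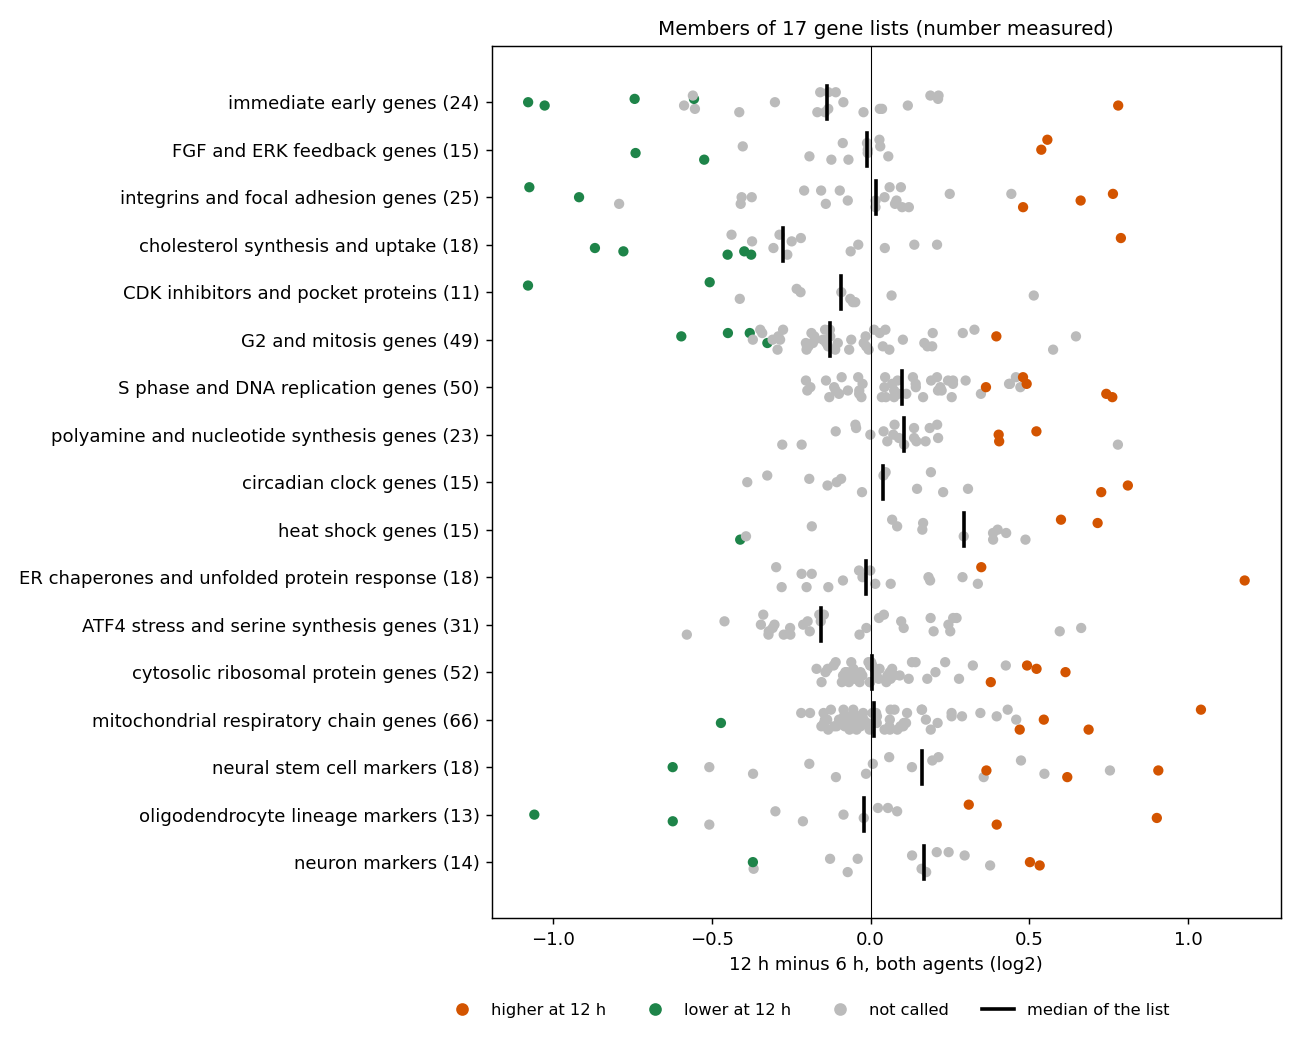
Log2 difference, 12 h minus 6 h, of each measured gene in 17 lists, one row a list; coloured points were called higher or lower and grey points were not, and the black line marks the median of the list. The medians lie near 0, from -0.27 for cholesterol synthesis and uptake to 0.29 for heat shock genes, with called genes on both sides in several lists.

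Of 15 circadian clock genes, 2 were called higher and 0 lower (3.98% and 2.89% over all genes), with a median of 0.04. Tef, a PAR-domain transcription factor under clock control, had 7.15, 7.49 and 7.86 at 12 h, and 6.46, 6.80 and 6.97 at 6 h. It rose by 0.73 ± 0.14 (adjusted p = 0.00819, limma) with no overlap. Nr1d2, the nuclear receptor REV-ERB beta, rose by 0.81 ± 0.19 (6.90, 7.22 and 7.52 at 12 h, 5.50, 6.58 and 6.72 at 6 h, adjusted p = 0.0185), a call lost without 4-OHT 12 h B (adjusted p = 0.0511). Its 6 h minimum came from the dim array. Per1 (-0.39, adjusted p = 0.0934), Nr1d1 (0.31, adjusted p = 0.4) and Dbp (-0.03, adjusted p = 0.951), chosen after their values were seen, did not pass the test. The upstream windows of 2 Tef starts are shown because both hold the E-box CACGTG, the motif bound by CLOCK and BMAL1, in capitals. The first is chr15:81802423-81802672, with the motif 127 bases before the start, and the second is chr15:81811164-81811413, with it 138 bases before, both on the plus strand of GRCm38.p6 from RefSeq.
Tef first start: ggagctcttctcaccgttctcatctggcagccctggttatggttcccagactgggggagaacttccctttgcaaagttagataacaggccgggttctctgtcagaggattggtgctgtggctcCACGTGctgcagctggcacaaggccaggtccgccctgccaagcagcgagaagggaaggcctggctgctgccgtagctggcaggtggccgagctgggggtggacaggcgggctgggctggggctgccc
Tef second start: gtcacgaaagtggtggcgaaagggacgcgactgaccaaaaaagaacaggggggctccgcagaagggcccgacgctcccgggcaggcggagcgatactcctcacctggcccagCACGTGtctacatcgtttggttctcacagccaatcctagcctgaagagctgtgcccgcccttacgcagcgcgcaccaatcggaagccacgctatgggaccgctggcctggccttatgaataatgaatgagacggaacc
The E-box, a palindrome that reads alike on both strands, is in 6.02% of all promoter windows. Counted by gene instead, a match in any of a gene's windows was enough. That gave 9.81% of genes that rose, 9.17% of genes that fell and 10.2% of all tested genes. These shares are not on the scale of the 6.02%, which counts single windows.

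Of 18 measured NSC markers, 3 were called higher and 1 lower (3.98% and 2.89% over all genes), with a median of 0.16, and Fabp7 and Vim held without any single array. Fabp7 had 6.77, 7.36 and 7.99 at 12 h, against 6.30, 6.43 and 6.74 at 6 h. It rose by 0.91 ± 0.16 (1.87-fold, adjusted p = 0.00421, limma), and the times did not overlap. Vim had 11.90, 12.05 and 12.62 at 12 h and 12.60, 12.78 and 13.07 at 6 h. It fell by 0.62 ± 0.11 (adjusted p = 0.00594), with ranges that overlapped narrowly. Sox9 (0.36) and Sox2 (0.62) were called but did not hold (adjusted p up to 0.0842). A second Sox9 probe was called at 0.49 (adjusted p = 0.00819) without overlap, while a second Sox2 probe stood at -0.83 (adjusted p = 0.0573), so the direction of Sox2 is not settled. Nes, with a difference of -0.11 (adjusted p = 0.688), did not pass the test.

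Of 13 oligodendrocyte lineage markers, 3 were called higher and 2 lower (3.98% and 2.89% over all genes), with a median of -0.02. Its 2 best-known progenitor genes moved in opposite directions. Pdgfra, the receptor for PDGF-A, had 6.14, 6.37 and 6.56 at 12 h and 4.73, 5.59 and 5.75 at 6 h, and rose by 0.90 ± 0.16 (1.87-fold, adjusted p = 0.00588, limma). Cspg4, the NG2 proteoglycan, had 5.19, 5.46 and 5.83 at 12 h against 5.92, 6.63 and 6.89 at 6 h, and fell by 1.06 ± 0.17 (2.08-fold, adjusted p = 0.00246). Neither overlapped between the times, and both held without any single array. Bcas1 rose by 0.40 and the tight junction gene Cldn11 fell by 0.62 (adjusted p = 0.018 and 0.0133). Olig1, a bHLH factor of the lineage, rose by 0.31 (adjusted p = 0.0175), a call lost without 4-OHT 6 h C (adjusted p = 0.0542).

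For the other lineages and pathways the counts below stand beside 6.87% of all genes called either way. Of 14 neuron markers 2 were called higher and 1 lower, and only Sox11, a factor of immature neurons, which fell by 0.37 (adjusted p = 0.0113, limma), held without any single array. Its 3 other probes, at -0.05, 0.23 and 0.43, were not called, so its direction is not settled. Of 10 astrocyte markers 1 was called, the glutamine synthetase gene Glul (adjusted p = 0.0198), at least 1.03-fold higher since no array of 6 h was above background. It was lost without 4-OHT 6 h C or vehicle 12 h C (adjusted p up to 0.0592). Of 18 Notch genes 1 was called, Hes6 (-0.39), which did not hold, and Notch1 stood at 0.55 without passing the test (adjusted p = 0.0751). The C/EBP delta gene Cebpd rose by 0.52 (adjusted p = 0.00584), the 1 call among 16 NF-kB and inflammatory genes, and the aryl hydrocarbon receptor repressor gene Ahrr rose by 0.81 (adjusted p = 0.0084), the 1 call among 8 AhR and oestrogen receptor targets. Nkd1, a feedback inhibitor of Wnt signalling, rose by 0.56 (adjusted p = 0.0167), the 1 call among 15 Wnt targets, and the histone gene H2bc4 rose by 0.47 (adjusted p = 0.0127), the 1 call among 10 histone genes. Of 24 FoxO, glucocorticoid and glucose responsive genes 3 fell, and Cited2, a CBP-binding coregulator (-0.65), and the metallothionein gene Mt1 (-0.42) held. Among 18 interferon genes 0 were called.

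Id1, Id2 and Id4, inhibitors of bHLH transcription factors, were measured, and Id3 was below the detection filter. None was called between 12 h and 6 h with both agents together on all 12 arrays: Id1 stood at -0.35 (adjusted p = 0.157), and at -0.45 and called without the dim array (adjusted p = 0.0349), Id2 at -0.10 (adjusted p = 0.742, with 2 other probes at -0.08 and 0.48, not called) and Id4 did not pass the test (adjusted p = 0.204, limma). The change of Id2 was -0.43 in 4-OHT cultures and 0.23 in vehicle cultures. The difference between the agents was -0.65 ± 0.27 for Id2 and -0.30 ± 0.29 for Id1, both with an adjusted p of 0.9998. Id4 was detected on 3 of 6 arrays of 12 h and on none of 6 h, so no difference is given for it.

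Promoter motifs were counted in the 250 bases upstream of the start, and a gene counted if any of its windows held the motif. Windows were at hand for 316 of the 388 genes that rose, 229 of the 281 that fell and 7979 of all 9740. The shares below are out of these genes and are given with no test. The genes that fell held the TEAD motif in 17%, against 11.1% for the genes that rose and 12.3% for all tested genes. The AP-1 motif was in 6.11% of those that fell, 4.11% of those that rose and 5.01% of all tested genes. The CArG box, the binding sequence of SRF, was in 4.37% (10 genes), 0.949% and 1.52% in the same order. The 10 genes were Prune2 (-1.11), Pdgfc (-0.71), Myadm (-0.68), Hopx (-0.54), Ebf3 (-0.51), Srf (-0.40), Lamtor4 (-0.39), Tmem63a (-0.38), Glipr2 (-0.37) and Arrdc4 (-0.37). The CRE TGACGTCA was in 2.18% of those that fell, 1.27% of those that rose and 3.12% of all tested genes. The CCAAT box was in 40.2%, 41.1% and 41.0%, and the TATA box TATAAA in 7.86%, 10.1% and 7.61%, in the same order. The median GC content of the windows was 61.2% for genes that rose, 62.4% for genes that fell and 60.4% for all tested genes.

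The later times of the series are described without a test because the arrays from 18 h on belong to other blocks of array numbers. Emp1 had mean levels of 8.39, 6.27, 5.01, 5.24, 5.67, 6.22 and 7.81 in 4-OHT cultures at 6, 12, 18, 24, 48, 96 and 144 h, and of 8.17, 6.06, 5.49, 5.54, 5.19, 6.77 and 8.04 in vehicle cultures. At 144 h its 2 arrays per agent spanned 6.59 to 9.03 with 4-OHT and 6.00 to 10.07 with vehicle. Fabp7 was higher again at 18 h, with 6.39, 7.21 and 8.32 at 6, 12 and 18 h in 4-OHT cultures and 6.55, 7.54 and 8.43 in vehicle cultures. Pcna had 7.25, 7.98 and 8.64 in 4-OHT cultures and 7.17, 7.93 and 8.64 in vehicle cultures at the same times, and 7.35 and 6.64 at 144 h. Ccn2 had 7.56, 6.45, 5.61 and 4.93 in 4-OHT cultures, and 7.60, 6.56, 6.40 and 5.10 in vehicle cultures, at 6, 12, 18 and 24 h. Hspa5 was at 6.10 and 6.12 in 4-OHT cultures at 12 and 18 h and at 5.45 at 24 h, with 6.28, 6.23 and 5.71 in vehicle cultures. Pdgfra stood at 5.66, 6.34, 7.48, 8.27, 8.50, 9.86 and 10.41 in 4-OHT cultures over the 7 times and at 5.28, 6.40, 7.22, 7.62, 7.78, 8.16 and 7.33 in vehicle cultures.

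**Figure D4:**
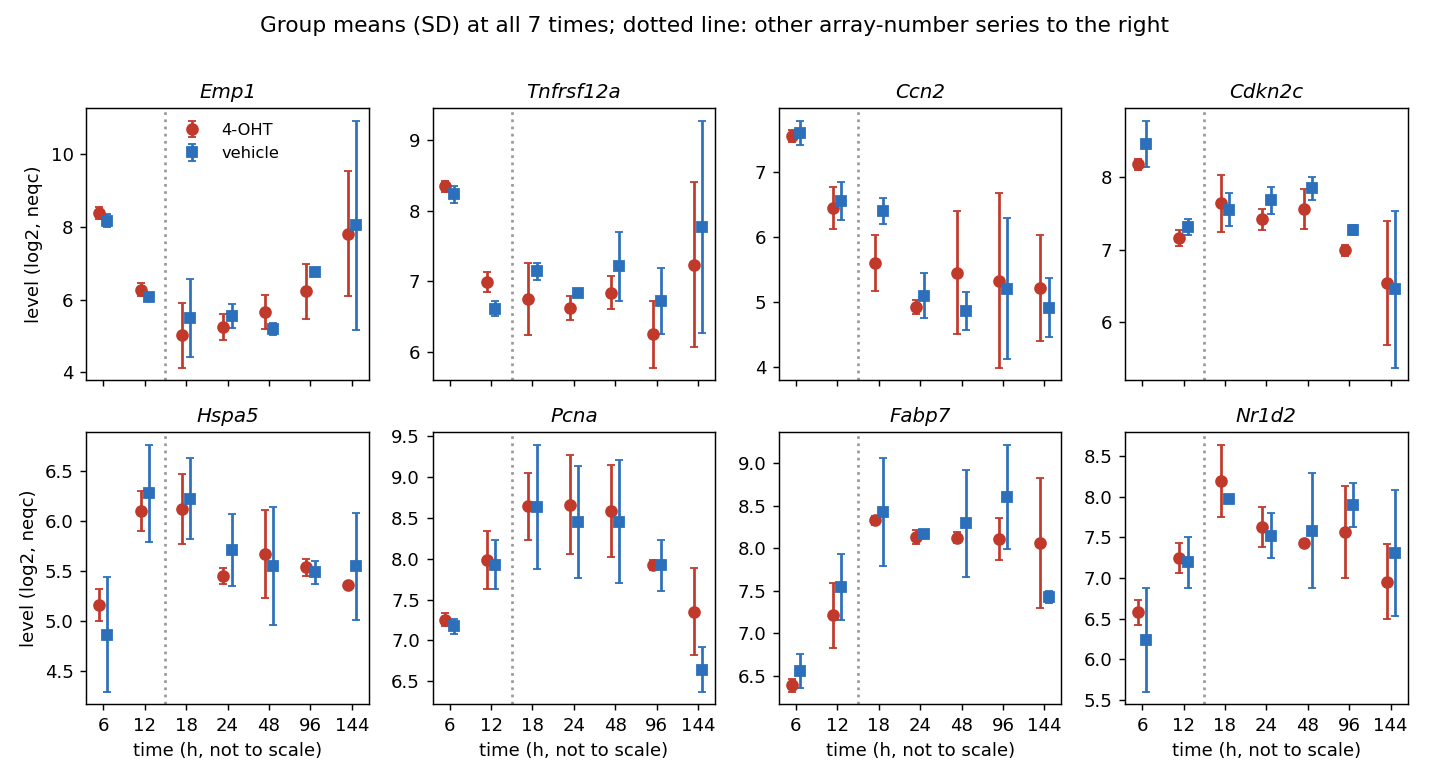
Mean level (log2 normalized intensity) with SD of 8 genes at 7 times, 4-OHT cultures as red circles and vehicle cultures as blue squares, 3 arrays a point and 2 at 144 h, on a time axis that is not to scale; the dotted line divides the arrays of 6 and 12 h from those of later times, which belong to other array-number blocks. Emp1 is lower at 12 h than at 6 h in both agents and has a wide SD at 144 h, and the Fabp7 means are higher at 12 h than at 6 h and higher again at 18 h.

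The comparison was repeated on 11 arrays, without the dim array. It gave 391 genes higher and 374 lower at 12 h, of which 319 and 252 were those called on all 12 arrays. Of the 114 named genes called on 12 arrays, 103 were called again and all 114 had the same sign, with the largest move for Arl14epl (0.33). The 11 that lost the call were Adm, Aldoa, Arrdc4, Bcan, Cdc20, Cdc6, Cyp51, Lama5, Prps2, Rplp0 and Sdhc, with adjusted p between 0.0507 and 0.0841 (limma). Emp1, Tnfrsf12a, Cdkn2c, Ccn2, Hspa5, Pcna and Fabp7 were among those called again. Among cholesterol genes 3 of 18 were then called lower and 1 higher, and among G2 and mitosis genes 3 of 49 lower and 1 higher.

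**Figure D5:**
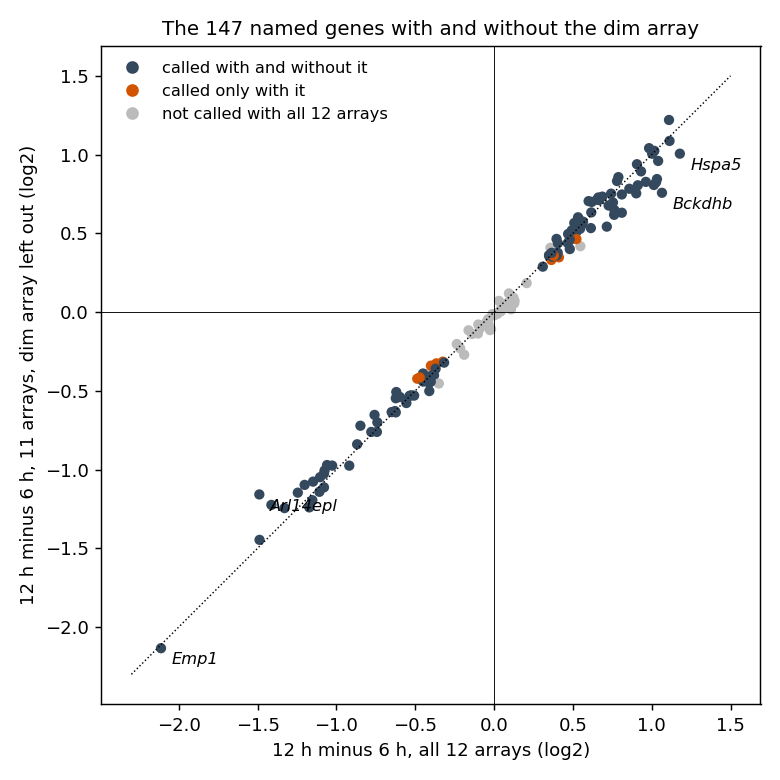
Log2 difference, 12 h minus 6 h, of the 147 named genes on all 12 arrays (x axis) and on the 11 arrays without the dim vehicle array of 6 h (y axis), with the line of equality. All 114 called genes keep their sign, and Arl14epl lies farthest from the line, by 0.33.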

How the data were processed

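The deposited table gives each probe on each of 40 arrays a linear bead intensity that was not normalized, and a detection p-value. GenomeStudio and lumi are named per the submitters' processing notes, with versions not given in the sources used here, and the authors also deposited log2 values, quantile-normalized with lumi per the series' design text. Of 45281 probes, 21 with fields out of step with the header were dropped. Of the 45260 used, 34872 had 1 symbol, 18 several and 10370 none, and 34794 matched RefSeq (GRCm38.p6), which changed 0 symbols.

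Intensities were background-corrected with neqc of limma 3.58.1 under R 4.3.3 (offset 16, quantile normalization over the 40 arrays). The detection filter left the tested set (18420 probes, 9740 genes; each gene by its probe of highest mean level). The model held agent and time (9 residual degrees of freedom, median 6.52 prior), and 4 group means (8 residual degrees of freedom) served the contrasts within agents and between them. Tests were two-sided moderated tests from limma with a variance trend and Benjamini-Hochberg adjustment over all tested probes, called under 0.05. The number of arrays limits the precision. On simulated data with 100 probes changed by 0.5 and 100 by 1 on the log2 scale among 18420, 27% and 90% were recovered in the comparison with both agents, with 8 false calls.

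The genes compared and the gene lists were chosen with earlier results of these data known. Named genes were the 14 largest changes each way among called genes whose times did not overlap, up to 5 called members of each list by lowest adjusted p, up to 2 by level where under 2 were called, and the Id genes. Genes named outside this rule are marked, except Egfr, Nes, Sox8, Dnm1l, Hnrnpa2b1, Serpinh1 and several of the genes with a CArG box. Replicate letters did not pair the arrays: deviations from the group means correlated from -0.369 to 0.185 for the same letter at 12 h and 6 h within an agent, and from -0.317 to 0.516 for other letters. Alternatives covered single arrays, the replicate block, normalization, scaling, background, filter, array weights, variance trend and all 40 arrays. Lists were described by counts and medians with no set test. Promoter windows and motifs came from RefSeq tables.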

Additional observations from a re-analysis of the deposited data

Results flagged for a closer look

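Each of 300 sides of 6 arrays, over the 147 named genes and 3 array measures, was checked for 1 array far from the other 5 (Dixon's ratio of gap to range above its 95% critical value). Chance flags about 1 in 20 groups, and 24 were flagged, 16 of them on the dim vehicle array C of 6 h.

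That array had a 95th percentile of intensity of 125, where the other 5 arrays of 6 h had 584 to 824, and 12947 detected probes, where they had 16220 to 17607. Genes lower on it than on the other 5 arrays of 6 h were Hspa5 (4.21 against 4.99 to 5.31), Bckdhb (4.27 against 5.91 to 6.53), Cyfip2 (4.32 against 5.32 to 5.76), Cct2 (4.92 against 5.97 to 6.27), Nr1d2 (5.50 against 6.41 to 6.72), Prim1 (4.29 against 5.003 to 5.40) and Pdgfra (4.73 against 5.55 to 5.75). Bag3 (9.06 against 9.46 to 9.62), Maml2 (10.05 against 10.33 to 10.47) and Id1 (6.92 against 7.41 to 7.59) were lower on it too. Genes higher on it were Arl14epl (10.91 against 8.40 to 9.30), Il17rd (6.78 against 6.43 to 6.55), Pfkp (7.46 against 6.55 to 6.82) and Cenpk (7.92 against 7.45 to 7.63). Without this array the differences, 12 h minus 6 h, were 1.01 for Hspa5, 0.76 for Bckdhb, 0.82 for Cyfip2, 0.81 for Cct2, 0.63 for Nr1d2, 0.62 for Prim1, 0.75 for Pdgfra, -0.50 for Bag3, 0.07 for Maml2, -0.45 for Id1, -1.16 for Arl14epl, 0.59 for Il17rd, -0.72 for Pfkp and 0.46 for Cenpk.

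On vehicle array C of 12 h, Cct2 (7.57 against 6.69 to 6.98), Idi1 (9.11 against 7.97 to 8.36) and Sox2 (8.04 against 6.90 to 7.33) were above the other 5 arrays of 12 h, and Ccnd1 (13.10 against 13.35 to 13.40) and Kif2c (8.68 against 8.98 to 9.16) below. Glul was low on vehicle array A of 12 h (4.59 against 5.09 to 5.35) and Kank1 on vehicle array B of 12 h (8.33 against 8.78 to 8.96). Cspg4 was low on vehicle array B of 6 h (5.92 against 6.59 to 6.89).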

How the results depend on the processing

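With both agents, 1203 probes were called. Leaving out single arrays gave 557 to 1437, median scaling 211, no filter 678, array weights 2641, no vehicle arrays that lay apart 2127 and vehicle arrays alone 1. The 30 of 4-OHT cultures became 2 to 126 without single arrays, 53 on all 40 arrays, 2 under median scaling, 9 without a filter, 50 over probes detected on all 12 arrays, 1565 with array weights and 851 without the 4 arrays apart. The 53 of vehicle cultures became 3 to 149, 112, 0 (1523 at an unadjusted p under 0.05), 16, 85, 16 and 1 in the same order of settings. The difference between agents gave 0 under every setting run. The authors' log2 values gave 1221, 27 and 55. Scaling over probes detected on all 12 arrays (804), dropping the 4 arrays and fits within 1 agent were chosen after seeing the data. Dropping the 4 arrays left 1 vehicle array at each time, so the vehicle change there compares 1 array with 1. The cause of these changes was not tested, except that fewer arrays or probes enter by construction.

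With the replicate block the counts were 875 with both agents, 9 in 4-OHT and 13 in vehicle cultures, and 95 of the 114 called named genes kept their call. What arrays of a letter share is not stated in the labels, so the block is not taken as a paired analysis. Of the same 114 genes, 67 kept their call with group means on all 40 arrays, 76 without a filter and 24 under median scaling. With array weights 113 kept it, and 113 with the authors' log2 values. Pcna, Uhrf1, Birc5, Kif2c, Cav1, Hbegf and Rgs16 were among those lost on all 40 arrays.

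Median scaling shifted the median of all genes from 0.01 to 0.43 and the share of higher calls from 58.1% to 87.7%. It turned Dusp1 (0.044), Mt1 (0.17), Arrdc4 (0.15), Lss (0.16), Cyp51 (0.24), Aldoa (0.12), Birc5 (0.0087), Kif2c (0.12), Bub1b (0.23), Cdc20 (0.31), Bag3 (0.15), Ubtf (0.0065), Polr1b (0.10), Sdhc (0.16), Hes6 (0.19), Sox11 (0.22), Tnc (0.29), Lama5 (0.14), Bcan (0.15) and Srf (0.13) positive, all below that shift. Scaling over detected probes turned Rpl14 (-0.011) and Glul (-0.028). Relative to the median of all genes under each of these scalings, 659 of 669 called genes kept their sign under either. Of the named called genes, 67 kept the call without each single array and 1, Emp1, under every alternative (-2.16 to -1.63).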
